A study of Mus musculus with 34 samples.

Results

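The genes described here were the nuclear-encoded subunits of the mitochondrial oxidative phosphorylation complexes, chosen by symbol alone. Protein-coding genes named Nduf with a letter a, b, c, s or v and a number, Sdha to Sdhd, Uqcr, Cox4 to Cox8 or Atp5 were taken, and assembly factors (Nduf genes with af) were left out. The rule found 85 of the 51368 genes in the table: 37 of complex I, 4 of complex II, 8 of complex III, 18 of complex IV and 18 of complex V. They were read across 34 RNA-seq libraries from 1 wild-type C57BL/6J mouse, 12 weeks old, which the labels gave as female in one field and as male in another. The liver RNA had been made into 9 polyA-selected, 9 ribosomal RNA (rRNA) pull-down and 9 rRNA digestion libraries, each set holding every combination of 3 PCR ramp rates with 3 fragment lengths. A further 6 liver libraries and 1 heart library received no selection, and all of these had the slow ramp and medium fragments.

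PolyA selection captures RNA by its tail (TruSeq Stranded mRNA kit), pull-down removes rRNA hybridised to probes (TruSeq Stranded Total RNA kit), and digestion degrades rRNA bound to DNA probes (Ribo-Zero Plus kit). Selected libraries were made from 200 ng of RNA and unselected ones from 20 ng, all with 13 PCR cycles. The polyA libraries, 3 unselected liver libraries and the heart library were labelled batch 1. The pull-down and digestion libraries and the other 3 unselected liver libraries were labelled batch 2. Each method was therefore compared with the unselected libraries of its own batch, and a method cannot be told apart from its kit or its input amount. Every liver library came from the same RNA, so p-values measure the spread between preparations and not between animals. Each combination of selection method, ramp and length was 1 library, so this spread can also hold ramp or length effects that differ between methods.

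Oxidative phosphorylation is carried out in the inner mitochondrial membrane. Complex I (NADH dehydrogenase) and complex II (succinate dehydrogenase) pass electrons through ubiquinone to complex III (the cytochrome bc1 complex), cytochrome c and complex IV (cytochrome c oxidase). Complexes I, III and IV pump protons, and complex V (ATP synthase) uses the proton gradient to make ATP. Most subunits are encoded in the nucleus, many of them as small proteins on short polyadenylated mRNAs, while a few core subunits are encoded by mitochondrial DNA. Liver and heart are both rich in mitochondria, and several complex IV subunits exist as a ubiquitous or liver form and a heart and muscle form encoded by separate genes.

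Total counts were 19873390 to 21695696 in the unselected liver libraries, 22292137 in the heart library, 23453453 to 41396063 with polyA selection and 19984238 to 30169379 with digestion. With pull-down they were 23376037 to 39186257 in 8 libraries and 1126383 in the library with long fragments and the slow ramp, which stands apart. Of the 79 members that passed the filter on low counts, 24 lay above and 28 below all other pull-down libraries in that library. The gene Lars2 held 38.4 to 40.2% of the nuclear protein-coding counts of the unselected liver libraries, 3.25% in that low-depth pull-down library and at most 0.0405% in the polyA and digestion libraries. Summed hepatocyte markers were at 52642 to 53771 normalised CPM in the unselected liver libraries, and summed cardiomyocyte markers there did not pass 0.838. The hepatocyte sum was 67785 to 76036 with polyA, 52114 to 70071 with pull-down and 45587 to 49047 with digestion, above every unselected library with polyA and below every one with digestion. Endothelial markers were at 88.4 to 102.3 unselected, 36.2 to 39.7 with polyA, 110.5 to 139.5 with pull-down and 73.6 to 83.2 with digestion. Kupffer cell markers were at 96.7 to 103.3 unselected, 69.5 to 76.1 with polyA, 144.8 to 206.9 with pull-down and 71.2 to 79.9 with digestion. Fibroblast markers were at 75.5 to 89.4 unselected, 61.3 to 71.7 with polyA, 98.04 to 135.6 with pull-down and 64.4 to 75.4 with digestion. Red blood cell markers, all 4 of them globin genes, were at 215.5 to 259 unselected, 303 to 418 with polyA and 304 to 444 with pull-down. With digestion these globin genes were at 2.75 to 4.55, and the cause was not tested. All these libraries came from 1 RNA, and the part of these shifts in the members' values was not tested. Normalised CPM divides each count by the library total after scaling by TMM, a method that sets most genes level between libraries.

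The members had short mRNAs. Of the 85, 79 passed the filter on low counts. Their median annotated length was 861 nt against 3001 nt for the 13389 protein-coding genes that passed, and 47 of 79 (59.5%) were under 1000 nt against 6.05%. Median GC content was close, at 51.5% and 50.2%. The 6 that did not pass were the heart and muscle forms Cox6a2 and Cox8b, the lung-enriched form Cox4i2, the testis forms Cox7b2 and Cox8c, and a 2nd gene model named Atp5o that overlaps Atp5o on the same strand. None of these 6 had more than 7 counts in any liver library.

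Per length, ATP synthase and cytochrome oxidase subunits were the most abundant members in unselected liver. Atp5b, the catalytic beta subunit of ATP synthase, led with 310.5 normalised CPM per kb (292.6 to 333 over 6 libraries). Atp5g3, one of the genes for the membrane ring subunit c, followed with 193 per kb (188 to 198), and Atp5a1, the alpha subunit, with 191 per kb (178 to 199). The ranges of Atp5g3 and Atp5a1 overlap, so these neighbours are not ordered beyond their spread. Ndufa4, a small subunit named for complex I and later placed in complex IV, had 160 per kb (140 to 180), and Cox4i1, the ubiquitous form of subunit 4, had 150 per kb (138 to 160). At the other end only the 79 members that passed the filter on low counts were ranked. Lowest were Cox6b2, the testis form of subunit 6b, with 0.119 per kb, Ndufa4l2, a relative of Ndufa4, with 0.640, and Cox7a1, the heart and muscle form of subunit 7a, with 1.16.

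The members took a larger share of the liver counts after polyA selection or pull-down than without selection, while the direction with digestion depended on the denominator. Of all counts, the members held 0.117% and 0.120% in the unselected libraries of batch 1 and 2, 1.19% with polyA, 0.823% with pull-down and 0.733% with digestion. Against nuclear protein-coding counts without Lars2, a denominator chosen after seeing the data, the digestion share was instead the smallest. On that scale they held 0.924% ± 0.0048 (SD, n = 3) and 0.914% ± 0.0039 (SD, n = 3) of unselected libraries in batch 1 and 2. PolyA libraries held 1.26% ± 0.034 (SD, n = 9; 1.23 to 1.33), pull-down libraries 1.20% ± 0.099 (SD, n = 9; 1.12 to 1.39) and digestion libraries 0.815% ± 0.0474 (SD, n = 9; 0.771 to 0.881). On that scale no polyA, pull-down or digestion library overlapped the unselected range. With Lars2 in the denominator the unselected shares were 0.566% and 0.550%, and the digestion share, 0.815%, was then above them. Complex V gave the largest part in every group, at 0.471% of nuclear protein-coding counts without Lars2 with polyA selection and 0.363% in the unselected libraries of batch 1, followed by complex I at 0.342% and 0.237%.

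**Figure D1:**
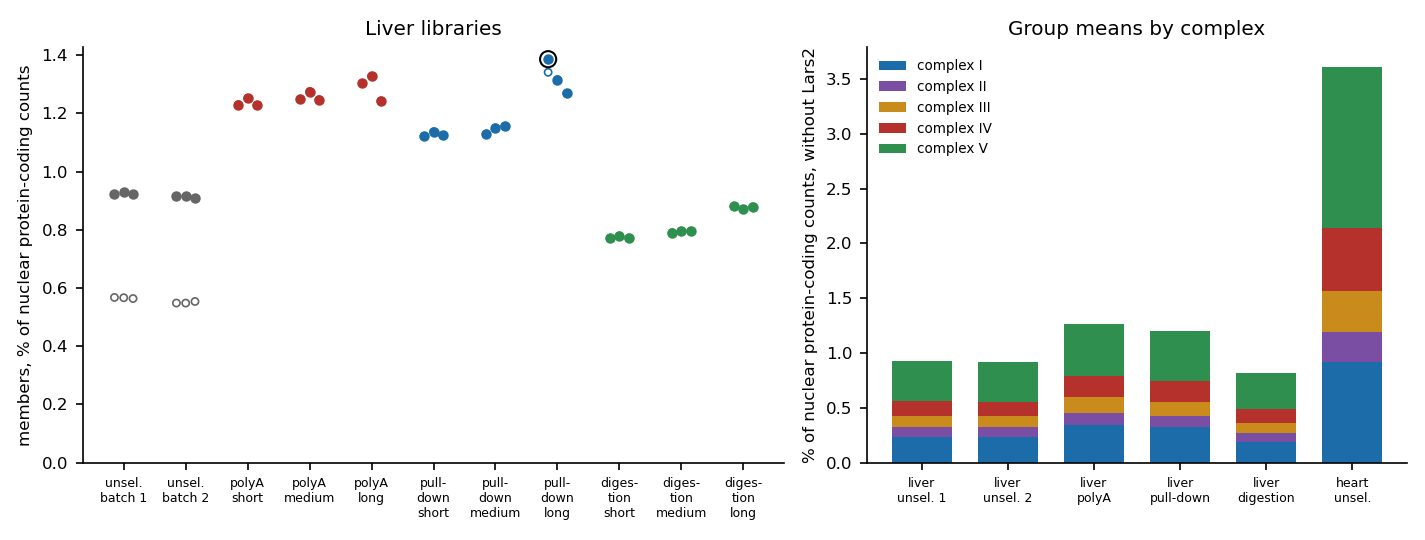
Left, the summed counts of the members as a percentage of the nuclear protein-coding counts in each liver library, by method and fragment length. Filled points leave Lars2 out of the denominator, open points keep it in, and the ringed point is the pull-down library with 1126383 counts. Right, group means without Lars2 stacked by complex, with the single heart library at 3.61%.

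PolyA selection raised nearly all members. Relative to unselected libraries of the same batch, 72 of 79 were higher and none was lower (each fold change was above 0), with a median log2 fold change of 0.72, where 50.4% of all genes tested changed in either direction and 25.6% were higher (edgeR quasi-likelihood test, Benjamini-Hochberg adjusted p under 0.05). By complex, 35 of 37 members rose in complex I, 4 of 4 in complex II, 8 of 8 in complex III, 10 of 13 in complex IV and 15 of 17 in complex V. The median over all genes tested was 0.04.

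Uqcrh, the acidic hinge protein of complex III that sits near cytochrome c, had the largest rise. It measured 59.3, 61.2 and 65.7 normalised CPM in the 3 unselected libraries and 121 to 192 (median 137) in the 9 polyA libraries, which did not overlap. Its log2 fold change was 1.20 (SE 0.10, edgeR adjusted p = 3.43e-11). Ndufa5, an accessory subunit of the peripheral arm of complex I, rose from 11.95, 17.3 and 19.8 to 31.9 to 47.1 (median 34.6), a log2 fold change of 1.13 (SE 0.13, edgeR adjusted p = 1.57e-08). Cox7c, a small subunit of complex IV, rose by 1.06 (SE 0.10, edgeR adjusted p = 3.54e-10) and Atp5k, subunit e of the membrane part of ATP synthase, by 1.05 (SE 0.11, edgeR adjusted p = 1.25e-09).

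Uqcrh, Ndufa5, Cox7c and Atp5k were named for having the largest rises, so every other member had to lie below them. The 10 core subunits also rose with polyA selection. Log2 fold changes were 0.40 for Ndufs1 (iron-sulfur core of complex I), 0.58 for Ndufv1 (the NADH-binding subunit), 0.40 for Sdha (the flavoprotein of complex II), 0.50 for Uqcrc1 (a core protein of complex III), 0.45 for Atp5a1 and 0.54 for Atp5b. Sdhb (0.79), Uqcrfs1, the Rieske protein (0.72), Cox4i1 (0.84) and Cox5a (0.60) lay higher. All of these core members passed the test. Among the 7 members that did not pass were Cox8a (0.47, edgeR adjusted p = 0.0688), Cox7a1 (2 to 5 counts in unselected libraries) and Ndufb4, whose counts could be divided with a processed pseudogene described later.

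Pull-down also raised most members, but not the same way for each. It raised 66 of 79 and lowered 2, with a median log2 fold change of 0.56, where 32.8% of all genes tested changed and the median over all of them was 0.06 (edgeR). The lowered pair were Uqcrq, a small subunit of complex III, and Atp5j, coupling factor 6 of the ATP synthase stalk. Uqcr11, another small complex III subunit, rose from 39.0, 47.7 and 48.2 normalised CPM to 74.5 to 145 (median 91.7), by 0.95 (SE 0.14, edgeR adjusted p = 1.497e-06), and Atp5k rose by 0.89 (SE 0.11, edgeR adjusted p = 9.15e-08). For Cox7a1 the call rests on 1 to 2 counts in each unselected library against 0.744 to 1.86 normalised CPM with pull-down. Of the core subunits, Ndufs1 (0.42), Ndufv1 (0.72), Sdhb (0.69), Uqcrc1 (0.48), Uqcrfs1 (0.48), Cox4i1 (0.72), Atp5a1 (0.58) and Atp5b (0.52) rose, whereas Sdha (-0.06) and Cox5a (0.11) did not pass the test. The rise held for 34 of 37 members of complex I, 3 of 4 of complex II, 7 of 8 of complex III, 11 of 13 of complex IV and 11 of 17 of complex V.

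Atp5j measured 65.4, 68.8 and 70.0 normalised CPM in the unselected libraries of batch 2 and 41.2 to 62.7 (median 46.7) with pull-down, without overlap. It fell by 0.50 on the log2 scale (SE 0.07, edgeR adjusted p = 1.07e-06). Uqcrq measured 66.7, 71.4 and 76.7 unselected. With pull-down 8 libraries lay between 35.1 and 57.8 and the low-depth library at 122, so that its log2 fold change of -0.53 (SE 0.17, edgeR adjusted p = 0.0169) came with 1 library far above the unselected range. Both genes rose with polyA selection, Atp5j by 0.67 and Uqcrq by 0.71.

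The difference between the polyA and pull-down effects was itself tested, since these methods were in different batches. Of the 79 members, 23 had a larger rise with polyA selection and 1 a smaller one (edgeR). Together these 24 (30.4%) were a share near the 29.1% of all genes tested in either direction. Of all genes tested, 13.1% had a larger effect with polyA and 16% a smaller one. The largest differences were 1.24 for Uqcrq (SE 0.22, edgeR adjusted p = 3.57e-05), 1.18 for Atp5j (SE 0.09, edgeR adjusted p = 5.18e-12), 0.81 for Ndufa8, a complex I subunit with paired cysteine motifs, and 0.68 for Ndufa5. The gene with the smaller rise was Ndufb4 (-0.64). The count is not firm: without the 1st unselected library of batch 1 it was 13.

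Digestion lowered many members and raised few. Relative to unselected libraries of batch 2, 38 of 79 were lower and 5 higher, with a median log2 fold change of -0.26, where 14.7% of all genes tested changed, 7.64% were lower and 7.08% were higher (edgeR). Scaled by library totals instead of TMM, all 79 members were higher with digestion. That scaling moved the median of all genes from 0.04 to 2.85 on the log2 scale, and the members' median (2.56) stayed below it. Lower members numbered 20 of 37 in complex I, 2 of 4 in complex II, 2 of 8 in complex III, 3 of 13 in complex IV and 11 of 17 in complex V.

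The largest falls with digestion were those of Atp5k, Ndufa13, Ndufa5 and Atp5j2. Atp5k measured 29.1, 30.2 and 33.97 normalised CPM in the unselected libraries and 4.06 to 10.3 (median 5.61) with digestion, with no overlap, and fell by 2.52 on the log2 scale (SE 0.12, edgeR adjusted p = 9.70e-17). Ndufa13, a membrane-arm subunit of complex I also known as GRIM-19, measured 40.8, 41.7 and 42.7 unselected and 7.46 to 11.2 (median 8.49) digested, and fell by 2.30 (SE 0.15, edgeR adjusted p = 3.28e-13). Ndufa13 lies inside the gene model of Yjefn3 on the same strand, which had 0 to 8 counts in any liver library. Ndufa5 measured 17.4, 18.8 and 22.1 unselected and 3.77 to 6.47 (median 4.28) digested, and fell by 2.12 (SE 0.14, edgeR adjusted p = 7.26e-13). Atp5j2, subunit f of ATP synthase, measured 46.7, 50.2 and 52.7 unselected and 12.8 to 18.1 (median 13.6) digested, and fell by 1.93 (SE 0.10, edgeR adjusted p = 6.81e-16). In all of these the highest digestion library was below the lowest unselected library.

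Further members that fell with digestion had log2 fold changes of -1.501 (Cox6c of complex IV), -1.08 (Uqcrh), -1.06 (Atp5j) and -0.77 (Ndufa1, a small membrane subunit of complex I). The higher ones were Atp5d, the delta subunit of the ATP synthase stalk (0.78, SE 0.23, edgeR adjusted p = 0.0178), Cox7c (0.51, SE 0.10, edgeR adjusted p = 6.57e-04), Ndufa12, an accessory subunit of complex I (0.34), Uqcrc1 (0.29) and Uqcrfs1 (0.21). Atp5d overlaps Cbarp on the opposite strand, which had 31 to 73 counts in the digestion libraries against 3689 to 5703 for Atp5d. Of the core subunits, Sdha fell by 0.44 and Cox4i1 fell by 0.32, while Ndufs1 (-0.21), Ndufv1 (-0.02), Sdhb (0.13), Cox5a (-0.10), Atp5a1 (-0.03) and Atp5b (0.04) did not pass the test. Cox4i1 shares 5986 bases with the gene model Gm20388 on the same strand. Gm20388 had 48 to 96 counts in the unselected libraries of batch 2 and 0 to 31 with digestion. In batch 1 it had 79 to 95 counts in unselected liver, 0 to 950 with polyA and 0 in heart. Its part in the Cox4i1 values was not tested. Cox6b2 had 0 counts in every unselected library of batch 2, so no fold is given for it.

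Atp5k and Cox7c show how far apart short members could lie, since both mRNAs are under 1000 nt and both rose with polyA selection and pull-down, yet they moved in opposite directions with digestion. Atp5k lies at chr5:108433244-108434448 on the minus strand (GRCm38), has 4 exons in an annotated transcript of 371 nt and encodes 71 residues. Cox7c lies at chr13:86044816-86046904 on the minus strand, has 3 exons in a transcript of 540 nt and encodes 63 residues. Their coding sequences in GENCODE M21 have a GC content of 53.7% and 49.5% and are shown here with the start and stop codons in capitals.
Atp5k coding sequence: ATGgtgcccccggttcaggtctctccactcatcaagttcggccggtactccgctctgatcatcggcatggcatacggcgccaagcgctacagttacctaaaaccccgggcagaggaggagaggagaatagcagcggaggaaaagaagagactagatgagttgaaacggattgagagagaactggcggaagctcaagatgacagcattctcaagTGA
Cox7c coding sequence: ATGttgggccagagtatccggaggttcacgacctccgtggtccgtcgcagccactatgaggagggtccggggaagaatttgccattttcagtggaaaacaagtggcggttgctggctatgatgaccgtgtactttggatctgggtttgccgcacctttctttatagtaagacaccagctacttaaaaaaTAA
Cox7c measured 38.1, 40.6 and 41.9 normalised CPM unselected and 48.6 to 90.9 (median 62.6) digested without overlap, so every digestion library was above the unselected ones for Cox7c and below them for Atp5k.

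**Figure D2:**
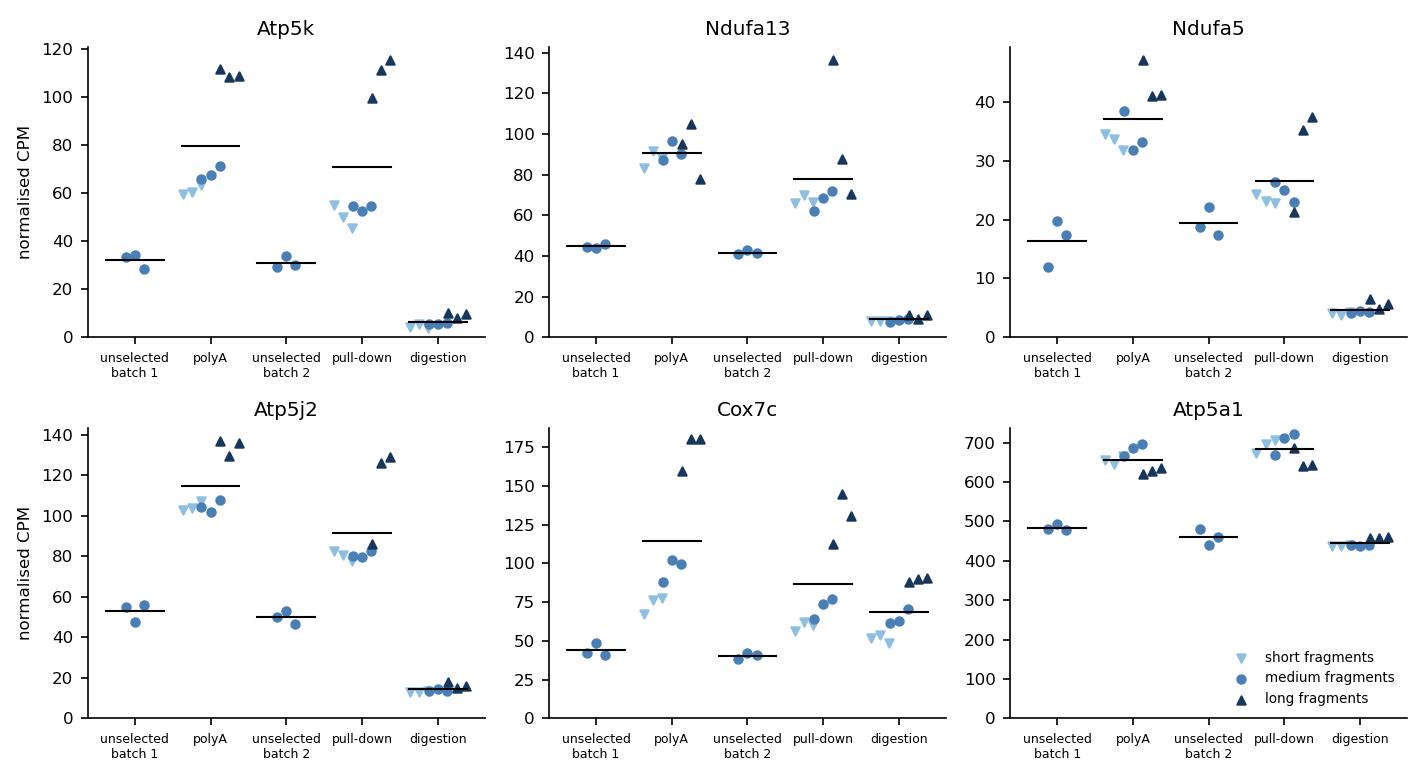
Normalised CPM in each liver library for 5 short members and the longer Atp5a1, by method, with fragment length as marker and group means as lines. Atp5k, Ndufa13, Ndufa5 and Atp5j2 stand below every unselected library after digestion, Cox7c stands above them, and Atp5a1 (438 to 459.5 with digestion) overlaps them.

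Digestion and pull-down shared a batch and were compared directly. Members were lower with digestion in 74 of 79 cases and higher in 2, with a median log2 fold change of -0.77, where 70.7% of all genes tested changed and 36% were lower (edgeR). With library totals the split was 15 higher and 48 lower, with the median of all genes moved from -0.01 to 0.55. Atp5k (-3.41, SE 0.06), Ndufa13 (-3.05, SE 0.08), Atp5j2 (-2.67, SE 0.05) and Ndufa5 (-2.56, SE 0.07) were lowest. The higher pair were Uqcrq (0.65, SE 0.10, edgeR adjusted p = 6.49e-07), which pull-down had lowered, and Atp5d (0.52, SE 0.13, edgeR adjusted p = 5.09e-04). Between the polyA and digestion effects, which come from different batches, the difference passed the test for 70 of 79 members, all in favour of polyA, against 42.1% of all genes tested in either direction and 19.3% in that one (edgeR). Atp5k had the largest such difference (3.57, SE 0.14), followed by Ndufa13 (3.25, SE 0.18), Ndufa5 (3.24, SE 0.18) and Atp5j2 (2.90, SE 0.12).

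Across the comparisons with unselected libraries, 63 of 79 members (79.8%) rose with both polyA selection and pull-down, against 12.8% of all genes tested. These 63 were 87.5% of the 72 that rose with polyA and 95.5% of the 66 that rose with pull-down. All 38 members lowered by digestion (48.1% of 79) were among those raised by polyA, where 4.43% of all genes tested did both, and 34 of them (43.0%) were also raised by pull-down, against 2.54%. With polyA raising 72 of the 79 and pull-down 66, most of each of these overlaps had to occur. Pull-down and digestion also share their unselected libraries, so these counts are a description. The 4 members raised by all 3 methods (5.06%, against 1.32% of all genes tested) were Cox7c, Ndufa12, Uqcrc1 and Uqcrfs1. Without the 2nd unselected library of batch 2, digestion raised 1 member, Cox7c, in place of 5, and without the 3rd it raised 3.

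Members were grouped by mRNA length. The 47 members under 1000 nt had median log2 fold changes of 0.82 with polyA, 0.58 with pull-down and -0.42 with digestion. The 810 protein-coding genes of that length had 0.70, 0.46 and -0.16. Of the longer members, 14 of 1000 to 1500 nt had medians of 0.68, 0.53 and -0.24, against 0.56, 0.38 and -0.04 for the 1246 protein-coding genes of that length. The 13 members of 1500 to 2500 nt had 0.60, 0.52 and -0.02, against 0.35, 0.23 and 0.03 for 3121 genes. The 3 members of 2500 to 4000 nt had 0.40, 0.42 and -0.21, against 0.05, 0.06 and 0.06 for 3919 genes, and the 2 longest had 0.57, 0.57 and -0.15, against -0.43, -0.14 and 0.06 for 4293 genes. Length is that of 1 annotated transcript per gene. For Atp5g1, 1 of the 2 longest, it is 4715 nt, against 731 and 723 nt for the other subunit c genes Atp5g2 and Atp5g3. The differences between members and other genes of like length were not tested. Spearman's rho between length and log2 fold change was -0.50 with polyA, -0.31 with pull-down and 0.28 with digestion over the 79 members. Over 13389 protein-coding genes it was -0.59, -0.42 and 0.09, and over the 810 under 1000 nt it was 0.08, -0.05 and 0.09. These are correlations across genes of the same libraries, and genes are not independent replicates.

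**Figure D3:**
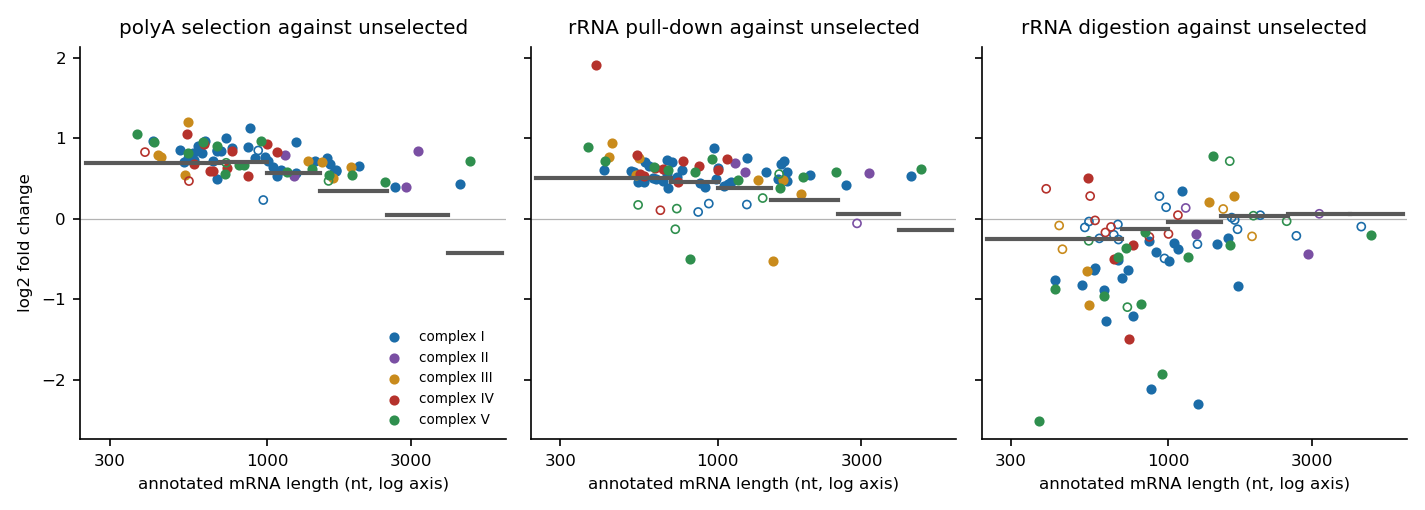
Log2 fold change of each member against its annotated mRNA length (log axis) for the 3 methods against unselected libraries, coloured by complex, filled where the edgeR adjusted p was under 0.05. Cox6b2 is left out, and grey bars are medians of all protein-coding genes in length bins. With digestion the members spread from 0.78 (Atp5d) down to -2.52 (Atp5k).

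Fragment length was compared over the 27 selected libraries, long against short. With pull-down 45 of 79 rose and 5 fell (median 0.23), where 33.3% of all genes tested changed and 19.1% rose. With digestion 30 rose and 1 fell (median 0.23), where 6.05% of all genes tested changed, 4.33% rose and 1.72% fell. With polyA selection 32 rose and 15 fell (median 0.07), where 49.7% of all genes tested changed and 24.9% rose. All calls are at an edgeR adjusted p under 0.05. Of the 47 members under 1000 nt, 24 rose and 6 fell with polyA, 33 rose and 0 fell with pull-down, and 23 rose and 0 fell with digestion. Among the 812 protein-coding genes of that length 30.1%, 33.3% and 21.8% rose. In all 3 methods 20 members rose (25.3%), against 1.74% of all genes tested. Scaled by library totals, the split became 26 higher and 17 lower with pull-down and 27 and 21 with polyA. Without the low-depth pull-down library it was 38 and 9 with pull-down and 48 and 1 with digestion. With the 9 libraries of a method fitted alone, 15 rose and 0 fell with pull-down, and 59 rose and 1 fell with digestion.

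Cox7c had the largest rise with polyA. It measured 67.3, 76.3 and 77.7 normalised CPM in the short polyA libraries and 160, 180.1 and 180.4 in the long ones, and 48.6, 51.8 and 53.9 against 88.3, 90.2 and 90.9 with digestion. Its log2 fold changes were 1.22 (SE 0.05) with polyA, 1.18 (SE 0.06) with pull-down and 0.83 (SE 0.06) with digestion. Atp5k rose from 59.7, 60.5 and 63.3 to 108.3, 108.9 and 111.4 with polyA, and by 0.82, 1.20 and 1.05 in the 3 methods. In both genes no long library overlapped a short one within polyA or digestion. Atp5l, subunit g of ATP synthase, rose by 1.07, 1.09 and 0.42, Ndufa1 by 0.90, 1.17 and 0.70, and Cox6c by 0.92, 0.79 and 0.69. Sdhb, the iron-sulfur subunit of complex II, was the member that fell with digestion (-0.24).

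The members that fell with longer polyA fragments were led by 3 complex IV subunits. Cox8a, the ubiquitous form of subunit 8, measured 108, 111.6 and 114.6 normalised CPM in short polyA libraries and 56.8, 73.6 and 74.2 in long ones, a log2 fold change of -0.73 (SE 0.12, edgeR adjusted p = 4.06e-05). Cox6a1, the liver form of subunit 6a, measured 149, 155 and 163 against 78.5, 103 and 105, a log2 fold change of -0.73 (SE 0.12, edgeR adjusted p = 2.51e-05). Cox5b fell by 0.58 (SE 0.11) and Atp5d fell by 0.54 (SE 0.16). Long and short libraries did not overlap for Cox8a or Cox6a1. With pull-down none of these 4 passed the test, and their low-depth long library lay far above the other pull-down libraries. The pull-down falls were small and included Ndufa10 (-0.28), Uqcrc1 (-0.21), Ndufv1 (-0.17) and Atp5b (-0.17).

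The difference in the length effect between polyA and digestion was tested as an interaction. It passed for 31 members, 6 larger with polyA and 25 smaller, against 32.6% of all genes tested, 15.7% larger and 17% smaller (edgeR). The smaller ones were led by Cox6a1 (-1.04, SE 0.17, edgeR adjusted p = 9.49e-05), Cox8a (-0.996, SE 0.17, edgeR adjusted p = 2.09e-04), Cox5b (-0.95, SE 0.16) and Atp5d (-0.63, SE 0.23). The larger ones included Atp5s, also called ATP synthase factor B (0.88, SE 0.18), Atp5l (0.65, SE 0.07), Cox7c (0.39) and Ndufc1, a small subunit of complex I (0.37).

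GC content moved with the length effect in polyA libraries. Over the 79 members, Spearman's rho between mRNA GC content and the long against short log2 fold change was -0.45 with polyA, -0.14 with pull-down and 0.07 with digestion. The members that fell had a GC content of 58.8% (Cox6a1), 58.6% (Cox8a) and 59.3% (Atp5d), but Cox5b had 49.0%. Cox7c and Atp5l, which rose, had 46.7% and 47.8%. Its part in the difference was not tested.

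**Figure D4:**
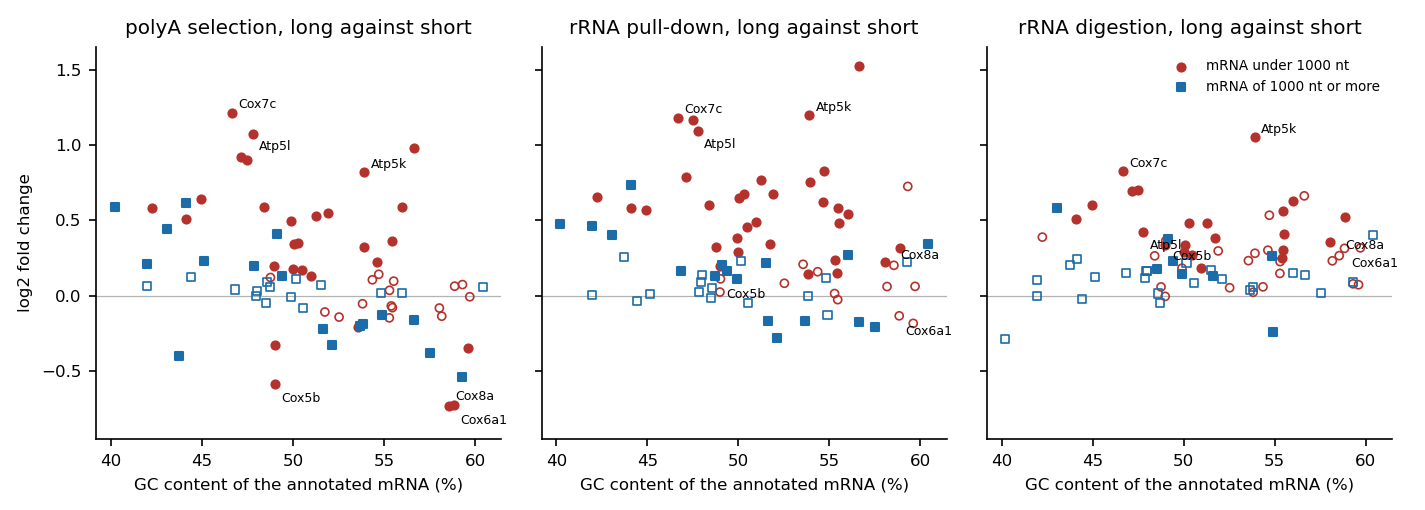
Log2 fold change of long against short fragments for each member against the GC content of its annotated mRNA, by method. Circles are mRNAs under 1000 nt and squares longer ones, filled where the edgeR adjusted p was under 0.05, with Cox6b2 and Ndufb4 left out. Cox6a1, Cox8a, Cox5b and Atp5d lie below -0.5 with polyA, and Cox7c and Atp5k lie above 0.8 in each panel.

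Ndufb4, a complex I subunit, is uncertain. Its counts could be divided with Ndufb4c, a processed pseudogene whose whole annotated transcript of 390 nt matches Ndufb4 base for base. From short to long fragments Ndufb4 rose by 1.54 with pull-down, while Ndufb4c went from 19.9 to 22.1 normalised CPM down to 0 to 3.19. Their sum went from a mean of 34.9 to 41.5 with pull-down, 38.8 to 50.2 with polyA and 22.8 to 25.8 with digestion. Between paired isoforms such as Cox6a1 and Cox6a2 or Cox8a and Cox8b the longest identical run was 9 to 28 bases. Atp5g2, which rose by 1.52 with longer pull-down fragments, ranged from 0 to 34.7 normalised CPM among the long libraries.

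Ramp rate and batch were compared in the same way. Between fast and slow ramps no member passed the test (edgeR), where 0.0712% of all genes tested did, 0.013% higher and 0.0583% lower. At an unadjusted p under 0.05 there were 20 of 79 members (25.3%), against 7.97% of all genes tested, and DESeq2 called 2. Between the 3 unselected libraries of each batch no member passed the edgeR test, with 0% of all genes tested. At an unadjusted p under 0.05 there were 7 members (8.86%), against 5.50% of all genes tested, DESeq2 called 0, and the members' median log2 difference was -0.04.

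Other mitochondrial genes were read from lists chosen by symbol, beside shares of all genes tested of 25.6% higher and 24.8% lower with polyA, 17.5% and 15.3% with pull-down, and 7.08% and 7.64% with digestion. PolyA selection raised 69 of 78 mitochondrial ribosomal proteins (median 0.65), 27 of 47 assembly factors (0.48, with 1 lower) and 14 of 16 tricarboxylic acid cycle genes (0.40). Cytosolic ribosomal proteins, also short mRNAs, rose in 73 of 79 cases (0.78). Pull-down raised 56, 22, 9 and 71 of the same lists, with 3, 2, 2 and 1 lower. Digestion lowered 17, 9, 4 and 53 of them, with 3, 2, 1 and 3 higher. Of the 13 mRNAs of mitochondrial DNA, which encode the partner subunits of complexes I, III, IV and V, with pull-down 8 were lower and none higher (median -1.495), with digestion 7 were lower (median -1.23), and with polyA 5 were lower and 1 higher (median -0.17). Of 6 regulators of mitochondrial gene expression, polyA raised 1 and lowered 3, pull-down raised 1 and lowered 2, and digestion changed none. Of 4 subunit genes outside the rule (Cyc1, Cycs, Ndufab1 and Usmg5), 2 rose with polyA, and 2 fell with pull-down and 2 with digestion.

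The heart library carried more of nearly every member than the liver libraries. It was compared with the 3 unselected liver libraries of its batch, and with 1 heart library there is no test. A member was counted as different when its ratio was at least 2 and the heart lay outside the range of the 3 liver libraries. Of 81 members with 10 or more counts in a library, 69 were higher and 2 lower, where 49.9% of all genes tested were different and 27.2% were higher. The median ratio was 2.74, against 1.02 over all genes. Cox6a2, Cox8b, Cox7a1, Cox4i2 and Ndufa4l2 reached 10 counts in the heart library alone, and so had to differ. Over the 76 members with 10 or more counts in a liver library, 64 were higher and 2 lower, with a median ratio of 2.67, where 16.7% of the 11201 genes under that filter were higher, 26.6% were lower and the median ratio was 0.888. In bulk tissue, fewer cells of a type and less RNA per cell cannot be told apart. Scaled by library totals, the median log2 ratio of all genes was 0.56, and 78 members were higher and 1 lower.

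Markers matched the tissue labels. Summed hepatocyte markers were at 46.2 normalised CPM in the heart library and 13081 to 13293 in the liver libraries, and summed cardiomyocyte markers were at 6433 against 0.0516 to 0.102, with 4 of 6 cardiomyocyte markers at 0 in every unselected liver library. Summed Kupffer cell markers were at 2.25 against 24.4 to 25.3, and endothelial markers at 91.4 against 21.8 to 25.3. Fibroblast markers were at 87.1 against 18.7 to 21.8, red blood cell markers at 123.7 against 61.1 to 64.0 and smooth muscle markers at 10.6 against 1.37 to 1.81. Of 3 skeletal muscle markers, all at 0 in these liver libraries, Ckm was at 158.7 in heart, Myh1 had 1 count and Myh4 had 0. Of 2 brown fat markers, Cidea was at 2.49 against 0 to 0.0516, and Ucp1 was at 0. The part of cell makeup in the ratios was not tested. These levels are scaled over the 4 libraries alone and are not comparable with the values above.

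Median ratios by complex were 2.76 for complex I, 2.18 for complex II, 2.54 for complex III, 3.13 for complex IV and 2.73 for complex V. With the 76 members alone the complex IV median was 2.57. Atp5b had 443.7 normalised CPM in heart and 152.5 ± 4.87 (SD, n = 3) in liver, a ratio of 2.91. Atp5a1 had a ratio of 3.29, Uqcrc1 3.61, Ndufs1 4.28, Ndufv1 3.31, Cox5a 3.76, Sdhb 3.04, Sdha 2.19 and Uqcrfs1 2.88. Ndufa5 reached 5.60 and Atp5g1, a subunit c gene, 4.86, while Atp5g3 was at 2.59 and Atp5g2 at 2.30. At the lower end Ndufa6, a complex I subunit, stood at 1.39 and Sdhd, a membrane anchor of complex II, at 1.60. Just inside the limit of 2 was Uqcr11 (2.02), and just outside it Ndufb6 (1.97).

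Complex IV held both extremes, through its isoform pairs. Cox6a2, the heart and muscle form of subunit 6a, had 2899 counts in heart and 0, 0 and 0 in liver, at least 627.5-fold higher against a floor of 3 counts per library. Cox8b, the heart and muscle form of subunit 8, had 956 counts against 0, 0 and 0, at least 206.9-fold higher. Cox7a1 had 1488 counts against 2, 2 and 5, a ratio of 322.5 (95% exact interval 169 to 707, counting error only). These 3 forms were thus present in heart and at or near 0 in liver. Cox6a2 lies wholly within Itgad, a gene on the opposite strand. Whether the authors' counting used strand is not given in the sources used here.

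The liver partners went the other way. Cox6a1 had 140 counts in heart (4.77 normalised CPM) and 437, 362 and 373 in liver (22.2, 19.9 and 19.2), a ratio of 0.233. Cox8a had 195 counts in heart (6.64 normalised CPM) and 343, 332 and 312 in liver (17.4, 18.2 and 16.1), a ratio of 0.385. The heart was below each liver library for both, and they were the only members lower in heart. With library totals their log2 ratios were -1.57 for Cox6a1 and -0.85 for Cox8a, so that Cox8a was then less than 2-fold lower. Cox7a2, the partner of Cox7a1, was not lower: it had 21.3 normalised CPM in heart and 14.9, 15.8 and 16.6 in liver, a ratio of 1.35.

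Other pairs were less divided. Cox4i1 was at 91.7 normalised CPM in heart against 28.9 ± 1.80 (SD, n = 3) in liver, a ratio of 3.18, and Cox4i2 had 24 counts against 1, 0 and 1, a ratio of 23.4 (95% exact interval 5.81 to 204.3, counting error only). Ndufa4 was 2.14-fold higher, and Ndufa4l2 had 38 counts against 2, 3 and 4, a ratio of 8.24 (3.91 to 19.4). Cox6b1 was 2.57-fold and Cox7b 3.13-fold higher, Cox7a2l was at a ratio of 1.78, and Cox6b2 had 6 counts in heart and 0, 0 and 2 in liver. The testis forms Cox7b2 and Cox8c had 0 counts in the heart and in all 3 liver libraries.

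**Figure D5:**
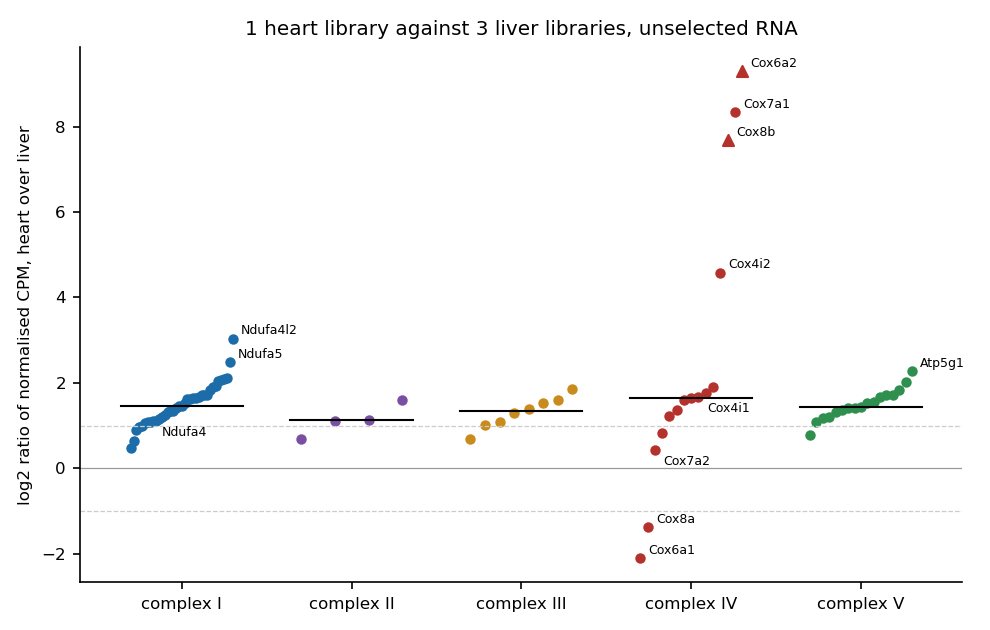
Log2 ratio of normalised CPM, the heart library over the mean of 3 unselected liver libraries of batch 1, for each member by complex. Triangles (Cox6a2, Cox8b) are lower bounds against a floor of 3 counts, dashed lines mark a ratio of 2 in either direction and bars are medians. Cox6a1 and Cox8a are below the lower dashed line.

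The promoters of 4 isoform genes are shown, of which Cox6a1 and Cox8a were lower and Cox8b and Cox7a1 higher in heart. The 250 bases before the start in RefSeq (GRCm38.p6) were read for the 66 members with an entry and searched on both strands for the E-box CANNTG, the TATA motif TATAAA, the NRF1 motif, the ETS motif CCGGAAG, the ERR motif TCAAGGTCA and the MCAT motif CATTCC. Matches are in capitals. The windows were Cox6a1 at chr5:115348959-115349208 (minus strand), Cox8a at chr19:7217617-7217866 (minus), Cox8b at chr7:140900447-140900696 (minus) and Cox7a1 at chr7:30183921-30184170 (plus).
Cox6a1: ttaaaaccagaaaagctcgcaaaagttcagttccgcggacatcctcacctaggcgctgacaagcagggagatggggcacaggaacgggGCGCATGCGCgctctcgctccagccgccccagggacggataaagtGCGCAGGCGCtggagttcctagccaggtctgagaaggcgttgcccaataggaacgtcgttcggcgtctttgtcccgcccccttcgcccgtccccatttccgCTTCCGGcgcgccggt
Cox8a: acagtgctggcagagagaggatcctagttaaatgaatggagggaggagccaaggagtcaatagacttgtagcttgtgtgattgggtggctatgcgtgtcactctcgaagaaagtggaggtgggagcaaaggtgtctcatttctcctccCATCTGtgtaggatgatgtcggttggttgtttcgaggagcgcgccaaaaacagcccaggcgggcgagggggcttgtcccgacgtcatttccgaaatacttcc
Cox8b: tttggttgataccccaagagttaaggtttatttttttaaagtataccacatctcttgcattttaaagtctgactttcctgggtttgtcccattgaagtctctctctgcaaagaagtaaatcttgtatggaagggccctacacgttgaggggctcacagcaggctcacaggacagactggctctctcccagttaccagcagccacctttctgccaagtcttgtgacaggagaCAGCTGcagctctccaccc
Cox7a1: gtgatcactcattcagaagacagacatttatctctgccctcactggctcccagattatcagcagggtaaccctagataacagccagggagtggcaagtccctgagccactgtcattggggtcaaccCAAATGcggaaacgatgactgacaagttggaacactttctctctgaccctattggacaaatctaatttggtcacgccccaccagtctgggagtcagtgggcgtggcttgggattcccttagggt
Cox6a1 held 2 NRF1 matches and 1 ETS match, and the other 3 held 1 E-box each. NRF1 and the ETS factor GABP are known activators of nuclear genes for mitochondrial proteins.

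Over all members the NRF1 motif was in 12 of 66 promoters (18.2%) against 3.86% of the 27025 promoters in the table. The 12 were Ndufa8, Ndufs5, Atp5k, Cox6a1, Ndufa5, Sdhd, Atp5h, Ndufs6, Sdha, Atp5g2, Ndufb4 and Ndufa11. The ETS motif was in 11 (16.7% against 7.05%), the E-box in 41 (62.1% against 66.0%), the TATA motif in 6 (9.09% against 13.0%), the MCAT motif in 7 (10.6% against 12.6%) and the ERR motif in 1 (1.52% against 0.366%). A match is a run of letters and not a bound site.

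The other mitochondrial lists were counted by the same rule, under which 27.2% of all genes were higher in heart. All 13 mRNAs of mitochondrial DNA were higher (median ratio 3.89), as were 13 of 16 tricarboxylic acid cycle genes (4.43) and all 4 subunit genes outside the rule. Of 46 assembly factors 14 were higher and 1 lower (median ratio 1.58), a share near that of all genes. Of 77 mitochondrial ribosomal proteins 13 were higher and 1 lower (median ratio 1.28). No cytosolic ribosomal protein was higher, and 2 of 79 were lower. A heart library was made only without selection, so the isoform ratios were not measured with the other methods.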

How the data were processed

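Gene-level values for 34 libraries were read as deposited by the authors: expected counts, which need not be whole. Salmon 1.9.0, UMI-tools 1.1.1, R 4.4.0 and the build GRCm38 are named per the submitters' processing notes, while the transcript set, any bias correction and the handling of duplicates are not given in the sources used here. The expected counts were rounded. Of 51368 gene identifiers, 50896 matched GENCODE M21 (GRCm38), and the 472 others held at most 0.0452% of a library's counts. The table held 0 columns outside the samples.

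The versions used were R 4.3.3 with edgeR 4.0.16 and limma 3.58.1. Quasi-likelihood fits in edgeR, scaled by TMM, compared the methods over 33 liver libraries (15422 genes tested), with additive terms for ramp and fragment length. Fragment length and ramp were compared over the 27 selected libraries (15442 genes tested). P-values were adjusted over all genes tested by the Benjamini-Hochberg method, with a threshold of 0.05. The additive terms assume the same length and ramp effect in each method of the first fit. Heart against liver, with 1 heart library, had no test. Intervals and floors cover counting error only. The scripts were tested on simulated data.

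Named genes were the isoform partners, 10 core subunits and the members that did not pass the filter. Also named were the 3 highest and 3 lowest per length among those that passed, and in each comparison the 4 largest changes in each direction. The members and lists were chosen with earlier results of these data known. One list had named Atp5mpl as outside the symbol rule, but it matches the rule and was counted as a member only. Alternatives were DESeq2 1.42.0, library totals, nuclear protein-coding totals, no count filter and leaving out libraries; the share without Lars2 and the heart filter on liver counts were chosen after seeing the data. The replicate numbers shared by the unselected libraries of both batches did not pair them, as same-numbered libraries had correlations of -0.042 to -0.018.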

Additional observations from a re-analysis of the deposited data

Results flagged for a closer look

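The pull-down library with long fragments and the slow ramp, which had 1126383 counts, lay far above the other 8 pull-down libraries for 6 of the members examined one by one. Over all 79 members tested it lay above the other 8 for 24 and below them for 28, such as Uqcrc2 (88.2 normalised CPM against 136 to 152) and Atp5c1 (108.7 against 140.8 to 157.8). Ndufa13 was at 136.4 normalised CPM there against 61.9 to 87.9, and Uqcrq at 121.7 against 35.1 to 57.8. Atp5d was at 197.7 against 63.7 to 81.4, and Cox6a1 at 187.9 against 83.0 to 120.7. Cox8a was at 196.1 against 82.8 to 88.0, and Cox5b at 162.6 against 75.8 to 92.9. The part of depth in these values was not tested. Among polyA libraries, the summed share of complex IV was 0.2069% in the library with long fragments and the medium ramp against 0.188 to 0.198% in the other 8. These 7 values far from their group, from 2 libraries, came from 66 groups of values examined, and chance flags about 1 in 20 groups.

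Differences between methods were tested directly by edgeR. Between the polyA and digestion effects 70 of 79 members (88.6%) passed, against 42.1% of all genes tested. Between the polyA and pull-down effects 24 (30.4%) passed, against 29.1%, a total share near that of all genes. By direction 23 were larger with polyA and 1 smaller, where 13.1% of all genes tested were larger and 16% smaller. Between the fragment length effects of polyA and digestion 31 (39.2%) passed, 6 larger with polyA and 25 smaller, against 32.6%, 15.7% larger and 17% smaller.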

How the results depend on the processing

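Of 143 recomputed main values and counts, 124 stayed within the spread or within 1.5 times, and 19 moved. With library totals, digestion changed 79 members, the polyA and pull-down effects differed for 65, and fast against slow ramps changed 1. Without 1 unselected library the polyA and pull-down difference covered 13 to 21 members. Long against short fragments changed 15 members with pull-down and 60 with digestion when the 9 libraries of that method were fitted alone, and 49 with digestion without the low-depth pull-down library. Fast against slow ramps changed 2 members with DESeq2 and 2 without that library. The replicate block, for numbers that do not pair the libraries, called 2 members between batches. With all genes as denominator the members' share was 1.19% (polyA), 0.823% (pull-down), 0.733% (digestion), 0.117% and 0.120% (unselected, batch 1 and 2) and 0.487% (heart). With nuclear protein-coding counts as denominator and only Lars2 taken out of it, the share was 0.924% and 0.914% (unselected, batch 1 and 2) and 3.61% (heart), from 0.566%, 0.550% and 2.48%. Of 989 values for single genes, 872 stayed, 45 lost and 11 gained the call, 56 moved and 5 reversed. The reversals, all in digestion against unselected, were Ndufv1 at 0.0326 and Atp5a1 at 0.0169 without a count filter, Atp5b at -0.0063 with DESeq2, and, without 1 unselected library, Ndufv1 (-0.0475 to 0.0404) and Atp5a1 (-0.0599 to 0.0047). None of the 3 had passed the test, and the cause was not tested. Low counts limit Cox6b2, Cox7a1 and Ndufa4l2 in liver.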
